A study of Mus musculus with 22 samples.

Results

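Lung epithelium of mice homozygous for an altered NANCI allele was compared with wild-type lung epithelium at E18.5, the last days before birth in the mouse. All libraries that the labels place in these groups were used, 3 from NANCI homozygotes and 3 from wild type, which are 6 of the 22 libraries of the series. NANCI mice had the genotype NANCI-CreERT2:RFP/CreERT2:RFP, with 2 copies of an allele whose name lists an inducible Cre recombinase and RFP, a red fluorescent protein, and wild-type (WT) mice were NANCI-+/+. Groups set beside them at the same age, with 3 libraries each, were Double, NANCI-CreERT2:RFP/+:Nkx2.1-GFP/+, with 1 copy of the NANCI allele and 1 copy of a green fluorescent Nkx2.1 allele, and Nkx, Nkx2.1-GFP/+, with the Nkx2.1 allele alone. Per the labels, magnetic pulldown of the epithelial adhesion protein EpCAM enriched the E18.5 cells, no removal of other cell types is named, and the 6-month cells used for a few values below were sorted as EpCAM+, CD45- and CD31-. The labels name no tamoxifen, strain or sex, and they do not say whether the replicates are separate animals, so the spread behind each p-value is that of these samples and may be partly technical. The study's title places NANCI and Nkx2.1 in a pair that buffers Nkx2.1 expression.

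NANCI is a long noncoding RNA transcribed beside Nkx2-1, whose homeodomain protein is needed to form lung and thyroid epithelium and stays active in the alveolar type 2 (AT2) cells that make surfactant. CreERT2 is Cre recombinase fused to a mutated ligand-binding domain of the human estrogen receptor, which keeps Cre out of the nucleus until tamoxifen is given. NANCI itself was not analysed here, so no value checks the homozygous label directly. Values are log2 expression, so that a difference of 1 is a 2-fold difference in level, and the deposited values appear to share 1 distribution across libraries. A change shared by most genes would therefore not be visible. Since these are bulk samples, fewer cells of a type and less RNA per cell cannot be told apart.

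The libraries differed in ways that the genotype labels do not give. All 3 NANCI libraries had a male pattern, with Xist at 7.21, 8.09 and 8.48 and a mean of the Y-linked genes at 11.98, 12.23 and 11.86. In WT, replicate 1 was male in pattern (Xist 7.53, Y-linked mean 11.85), while replicates 2 and 3 were female (Xist 14.64 and 16.31, Y-linked mean 3.81 in both). WT replicate 3 also stood apart from the other WT libraries. Across all genes it correlated at 0.975 to 0.981 with the NANCI libraries but at 0.964 and 0.947 with WT replicates 1 and 2. WT replicate 2 was the WT library farthest from NANCI, at 0.957 to 0.972. WT replicate 1 correlated at 0.971 to 0.982 with the NANCI libraries and at 0.977 with WT replicate 2. The NANCI libraries correlated at 0.982 to 0.985 with each other. With sex pattern as a covariate 0 genes passed in NANCI against WT by limma, and 3.45% had an unadjusted p under 0.05. The values that WT replicate 3 moves most are therefore also given without it. The 5 nuclear-retained RNAs measured, among them Malat1 and Neat1, had mean levels of 13.80, 13.85 and 13.75 in NANCI, against 13.01, 13.34 and 13.69 in WT replicates 1, 2 and 3. WT replicate 3 thus lay close to the NANCI libraries on that list, and the part this has in the results was not tested.

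With all libraries kept, NANCI homozygotes differed little from WT across the transcriptome and no gene passed the test, but the size of the differences depended on WT replicate 3. Of 13750 genes, 0 (0%) had a limma adjusted p under 0.05, and the smallest adjusted p was 0.0822. At an unadjusted p under 0.05 there were 426 genes (3.1%), of which 192 (1.4%) were higher and 234 (1.7%) lower in NANCI. The median absolute difference was 0.155 on the log2 scale, and 206 genes (1.5%) differed by at least 1. For 10685 genes (77.7%) the 95% interval of the difference lay wholly within ±1, so that a 2-fold difference in either direction fell outside it. For the other genes the 3 libraries per group leave differences of that size undetermined. The differences in Double against the same WT libraries were wider, with a median of 0.264, 1494 genes (10.9%) at 1 or more, and 2008 genes (14.6%) past the threshold. Double against WT without WT replicate 3 is not given here, so the widths are compared only with that library kept. Without WT replicate 3 the median absolute difference in NANCI was 0.272, and 531 genes (3.86%) differed by at least 1. The NANCI count at an unadjusted p under 0.05 then became 2821 genes (20.5%). Of these, 2 genes passed, both lower in NANCI: Mt1 (-1.67, limma adjusted p = 0.0412) and Igfbp6 (-1.44, limma adjusted p = 0.0412), which encodes a binding protein of insulin-like growth factors.

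**Figure D1:**
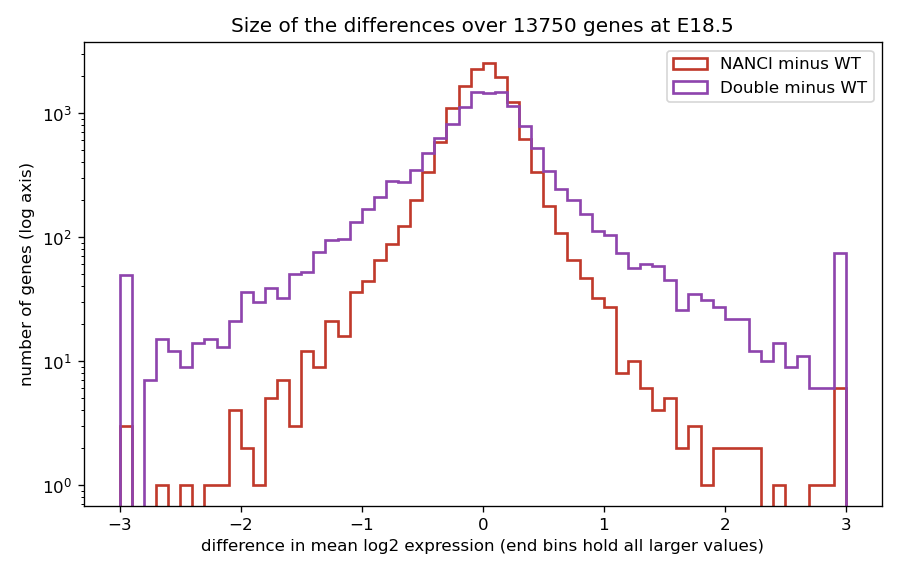
Number of genes (log axis) by difference in mean log2 expression at E18.5, in bins, for NANCI minus WT and Double minus WT, with the end bins holding all larger values. The NANCI curve is the narrower, with 206 of 13750 genes at 1 or more in size, against 1494 for Double.

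Nkx2-1 and its neighbours showed no difference that passed the test. Nkx2-1 (ENSMUSG00000001496, GRCm38 chromosome 12, 56531958 to 56536908, minus strand) was at 14.76, 14.84 and 14.89 in NANCI and at 14.48, 14.84 and 14.93 in WT libraries. The groups overlapped, and the difference was 0.08 ± 0.14 (limma SE; adjusted p = 0.978), with a 95% interval of -0.22 to 0.38. Its sign turned without WT replicate 1 (-0.05), and in the libraries of male pattern alone, with 1 from WT, the value was 0.34. The spread in those libraries comes from NANCI alone, so no p-value is given. Of the 13 genes listed for the locus 8 were measured, and all 8 intervals lay within ±1. Foxa1, the gene of an endoderm pioneer factor, was at 12.69, 12.84 and 13.02 in NANCI and at 12.55, 12.62 and 12.85 in WT, a difference of 0.18 ± 0.13. The differences were 0.19 ± 0.19 for Ttc6 and 0.17 ± 0.19 for Ralgapa1, with overlapping groups. Mbip, Mipol1 and Brms1l lay between -0.12 and 0.01. C87198, a lincRNA gene of the region added after its values were seen (GRCm38 chromosome 12, 56591059 to 56594996), was at 7.94, 8.20 and 7.96 in NANCI and at 7.76, 7.95 and 8.70 in WT (-0.10 ± 0.25). Nfkbia, which encodes the NF-kappa-B inhibitor IkB-alpha and is itself an induced gene, was the neighbour whose groups did not overlap, at 10.94, 11.05 and 11.23 in NANCI and at 11.72, 11.94 and 11.28 in WT. The nearest libraries were thus at 11.23 and 11.28. It was 1 of the 8 measured, and 6.27% of all genes did not overlap. Nfkbia differed by -0.58 ± 0.16 (limma adjusted p = 0.978).

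In 862 genes (6.27%) every NANCI library lay on the same side of every WT library, 408 (2.97%) higher and 454 (3.3%) lower. The mean difference was at least 1 in 98 of them, 38 higher and 60 lower. The gap between the nearest libraries reached 1 in 9 genes. The 6 with NANCI above were Esr1, Tslp, Impg1, Gcnt3, Prr16 and Tff2, and the 3 with NANCI below were the processed pseudogenes Gm7334, Rpl30-ps11 and Gm13498. The number of separated genes rests on WT replicate 3, because without it 6011 genes (43.7%) did not overlap. Leaving out any other NANCI or WT library gave 1317 to 2220 (9.58% to 16.1%). Fewer libraries separate more genes by construction.

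Esr1 had the widest gap and the smallest p. It encodes estrogen receptor alpha, a ligand-activated transcription factor (ENSMUSG00000019768, GRCm38 chromosome 10, 4611593 to 5005614, plus strand). Esr1 was at 7.21, 7.55 and 6.60 in NANCI and at 4.15, 3.99 and 4.15 in WT libraries. The lowest NANCI library lay 2.45 above the highest WT library. The difference of 3.02 ± 0.41 corresponds to a level 8.14-fold higher in NANCI (limma adjusted p = 0.0822), and it was 2.81 to 3.28 with any 1 NANCI or WT library left out. The WT values were low, near the Y-linked mean of 3.81 in the WT libraries of female pattern. Low values are tied in these data, so the fold and the narrow WT spread of Esr1 are poorly determined. Esr1 was also at 6.89, 6.64 and 5.75 in Double and at 4.74, 4.45 and 3.81 in Nkx libraries of the same age, which share no library with the comparison above (2.10 ± 0.41, limma adjusted p = 0.31). At 6 months it was at 8.35, 8.41, 8.50 and 8.66 in Double and at 5.15, 5.52 and 6.40 in Nkx, and there the Double and Nkx groups passed (2.79 ± 0.41, limma adjusted p = 0.00087). In that comparison 3460 of 15958 genes (21.7%) passed. The 6-month WT libraries were at 6.61, 4.95 and 5.95. The groups carrying the NANCI allele were thus the high ones at both ages. Whether reads of the receptor segment in CreERT2 are counted under Esr1 was not tested.

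Of the 20 listed genes that answer to estrogen receptor in other tissues, 16 were measured, Esr1 included, and their median difference was 0.03, against 0.01 over all genes. It was 0.34 in libraries of male pattern and 0.26 with array weights, and -0.02 without WT replicate 3. The list mean, which Esr1 and Greb1 enter, was 9.29, 9.37 and 9.41 in NANCI and 8.82, 9.10 and 8.94 in WT, without overlap. Those genes had the largest differences of the list, Esr1 has the smallest p of all genes in these data, and Greb1 was named after its values were seen. The list mean without them was not taken, so the lack of overlap says nothing apart from them. Greb1, an estrogen-responsive cofactor of the receptor, was at 7.82, 10.15 and 9.83 in NANCI and at 6.96, 6.95 and 7.56 in WT. The groups did not overlap, but NANCI replicate 1 lay just 0.26 above the highest WT library, and the difference was 2.11 ± 0.55 (limma adjusted p = 0.978). In Double, with 7.02, 7.95 and 8.97, Greb1 was not above Nkx, with 8.93, 8.89 and 8.86 (-0.91 ± 0.55). Ltf, the lactoferrin gene, differed by 1.21 ± 0.57 and Prlr, the prolactin receptor gene, by 0.72 ± 0.52, both with overlapping groups. The remaining members, Xbp1 and Ccnd1 among them, lay between -0.45 (Igfbp4) and 0.44 (C3).

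Gm13835 and Rab15 came next by p, and each was higher wherever the NANCI allele was present at E18.5. Gm13835, a processed pseudogene (ENSMUSG00000086922, GRCm38 chromosome 6, 31141979 to 31142663, minus strand), was at 8.82, 9.20 and 8.85 in NANCI and at 7.94, 7.56 and 7.40 in WT (1.33 ± 0.20, limma adjusted p = 0.115). It was at 8.96, 8.87 and 8.77 in Double and at 7.68, 7.76 and 7.97 in Nkx, a difference of 1.06 ± 0.20, and at 6 months that difference was 0.79 ± 0.53 (limma adjusted p = 0.322). Processed pseudogenes share sequence with a parent gene, so its reads may be split with that gene. Rab15 encodes a small GTPase of endosome recycling and lies on the chromosome of Nkx2-1 (ENSMUSG00000021062, GRCm38 chromosome 12, 76797960 to 76822908, minus strand). Rab15 was at 12.47, 12.10 and 12.04 in NANCI and at 11.40, 11.43 and 11.21 in WT (0.86 ± 0.14, 1.81-fold, limma adjusted p = 0.16). It was at 12.28, 12.47 and 12.37 in Double and at 11.85, 11.75 and 11.58 in Nkx (0.65 ± 0.14). At 6 months the Rab15 difference between Double and Nkx was 0.60 ± 0.23 (limma adjusted p = 0.0806).

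**Figure D2:**
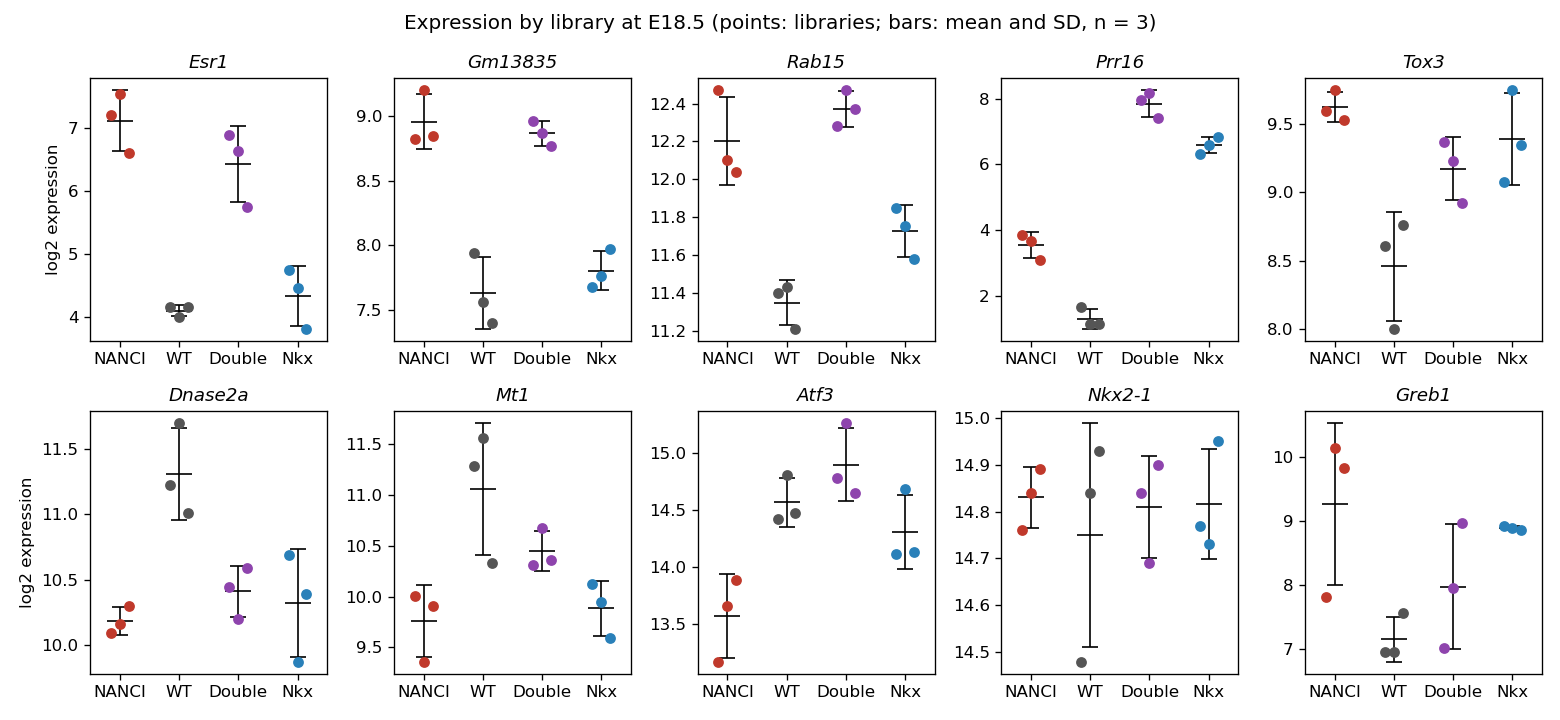
Log2 expression of 10 genes at E18.5 in the 3 libraries each of NANCI, WT, Double and Nkx, with the mean and SD as bars and a separate y axis for each gene. Esr1, Gm13835 and Rab15 are high in both groups with the NANCI allele, Nkx2-1 overlaps in all groups, and Atf3 is low in NANCI alone.

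Other genes at moderate or high levels stood above WT in all NANCI libraries without passing. Tox3, the gene of a high-mobility-group nuclear protein, was at 9.60, 9.75 and 9.53 in NANCI and at 8.61, 8.0 and 8.76 in WT (1.17 ± 0.23, limma adjusted p = 0.411). Tbc1d9, which encodes a protein with a Rab GTPase-activating domain, was at 9.90, 9.80 and 9.56 in NANCI and at 8.15, 8.72 and 8.86 in WT (1.17 ± 0.26). Nfix, the gene of a nuclear factor I transcription factor, was the tightest, at 11.19, 11.19 and 11.23 in NANCI and at 10.71, 10.71 and 10.82 in WT (0.45 ± 0.11). Mlip differed by 1.42 ± 0.30, and Pla2g4c, a cytosolic phospholipase A2 gene, by 1.54 ± 0.39. Cp, the gene of the copper-carrying ferroxidase ceruloplasmin, was at 12.90, 11.90 and 12.58 in NANCI and at 11.54, 11.37 and 11.73 in WT (0.91 ± 0.36). Of these 6, only the Double-minus-Nkx values of Tbc1d9 (0.49), Pla2g4c (0.45) and Cp (0.69) were above 0, and each had an unadjusted p over 0.05. At 6 months Tox3 and Tbc1d9 did rise in Double against Nkx, by 1.41 ± 0.29 (limma adjusted p = 0.00535) and 1.15 ± 0.25 (limma adjusted p = 0.00756). In that comparison 21.7% of all genes passed. Prr16 (0.82 ± 0.53), Dnase2a (-0.16 ± 0.26) and Mt1 (-0.31 ± 0.23), also among the 12 smallest p at E18.5, did not pass at 6 months. The 6-month values of Nfix, Pla2g4c and Cp were not taken.

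Several of the separated genes were near the bottom of the scale. Gcnt3, which encodes a mucin-type glycosyltransferase, was at 3.84, 3.68 and 3.09 in NANCI libraries, and in all 3 WT libraries it was at the lowest value of the library (1.66, 1.13 and 1.13), which was read as no reads. Prr16 had the same 6 values, and Tff2, the gene of a secreted trefoil peptide, was at 2.92, 3.68 and 3.09 in NANCI and at the same lowest values in WT. No fold is given for these 3 genes. Tslp, the gene of an epithelial cytokine, was at 6.72, 6.44 and 6.54 in NANCI and at 3.73, 4.76 and 4.77 in WT (2.14 ± 0.68, limma adjusted p = 0.978). Impg1, known as a matrix proteoglycan of the retina, was at 6.34, 7.42 and 6.82 in NANCI and at 4.48, 2.89 and 4.77 in WT (2.81 ± 1.43). In Double minus Nkx, Tslp was at -1.01 and Impg1 at 0.36. A processed pseudogene, Gm13394, had the form of a present or absent call, at 9.49, 9.32 and 9.38 in NANCI and at 3.12, 10.35 and 2.89 in WT. It passed in fits that drop or down-weight WT replicate 2, at 6.39 without that library (limma adjusted p = 3.15e-07) and 5.66 with array weights (limma adjusted p = 0.00707). In libraries of male pattern, with 1 from WT, the difference of Gm13394 was 6.28. It was at 3.46, 3.52 and 3.35 in Double and at 9.62, 9.91 and 9.51 in Nkx, so its level did not follow the NANCI allele.

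On the lower side the genes with the smallest p included a DNase, both metallothioneins and stress-induced regulators. Dnase2a, which encodes a lysosomal DNase, was at 10.09, 10.16 and 10.30 in NANCI and at 11.23, 11.70 and 11.01 in WT (-1.13 ± 0.22, limma adjusted p = 0.407). Mt1 and Mt2 encode metallothioneins, small proteins that bind zinc and copper and are induced by metals and glucocorticoids, and they lie next to each other on chromosome 8. Mt1 was at 10.01, 9.36 and 9.91 in NANCI and at 11.29, 11.56 and 10.33 in WT (-1.30 ± 0.29, limma adjusted p = 0.717). Mt2 was at 9.12, 8.16 and 8.89 in NANCI and at 10.59, 11 and 9.53 in WT (-1.65 ± 0.38, limma adjusted p = 0.799). In both genes WT replicate 3 was the WT library nearest to NANCI, and without it the differences were -1.67 and -2.08. In Double minus Nkx both had the opposite sign, 0.56 for Mt1 and 0.61 for Mt2.

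Ddc, the gene of the amine-synthesizing enzyme dopa decarboxylase found in neuroendocrine cells, was at 10.45, 10.26 and 9.96 in NANCI and at 10.85, 10.76 and 11.06 in WT (-0.67 ± 0.16, limma adjusted p = 0.978). It pointed the other way in Double minus Nkx (0.79), and the difference of the 2 differences, -1.45, had an unadjusted limma p of 2.73e-05. No gene passed that test of the difference over all genes. The other 8 neuroendocrine markers measured lay on both sides of 0, and the median of all 9 was -0.12. Lpcat2, which encodes an enzyme of lyso-PAF acetylation, differed by -0.80 ± 0.20, and Zfp791, a zinc finger gene, by -1.34 ± 0.86. Rpl30-ps11 was at 5.69, 5.60 and 5.90 in NANCI and at 8.01, 7.21 and 7.08 in WT (-1.70 ± 0.29, limma adjusted p = 0.202), and as a ribosomal protein pseudogene it may share reads with its parent.

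Immediate early genes, which are switched on within minutes by growth signals or by stress such as tissue dissociation, leaned lower in NANCI. Of the 25 measured, 20 lay below 0 and 11 had an unadjusted p under 0.05, all lower, against 1.7% of all genes. In 6 of them the groups did not overlap and NANCI was lower, against 3.3% of all genes. None passed the test over all genes. The median difference was -0.27, against 0.01 over all genes. The mean level of the list was 11.27, 11.72 and 11.80 in NANCI and 11.89, 12.15 and 11.77 in WT, so the groups overlapped by WT replicate 3. Without WT replicate 3 the median was -0.44 and 12 members were lower at an unadjusted p under 0.05, but 9.98% of all genes were then lower at that p. With any other NANCI or WT library left out, 5 to 10 members were, against 0.902% to 2.23% of all genes.

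Atf3, the gene of a stress-induced bZIP transcription factor, had the smallest p of the list, at 13.17, 13.66 and 13.89 in NANCI and at 14.42, 14.81 and 14.47 in WT (-0.99 ± 0.22, limma adjusted p = 0.781). Dusp1, which encodes a phosphatase that turns off MAP kinases, was at 12.47, 12.95 and 13.08 in NANCI and at 13.65, 13.71 and 13.32 in WT (-0.73 ± 0.19). Ccn1, the gene of a secreted matrix protein, was at 12.92, 13.18 and 13.56 in NANCI and at 14.27, 14.30 and 13.63 in WT (-0.85 ± 0.22). The AP-1 subunit genes were uneven. Jund (-0.74 ± 0.20) and Jun (-0.45 ± 0.18) were separated, Junb (-0.75 ± 0.26) and Fosb (-0.61 ± 0.25) overlapped, and Fos differed by -0.10 ± 0.21, also with overlap. Egr1 (0.03 ± 0.23) and Nr4a2 (0.34 ± 0.23) were at or above 0.

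The windows of 250 bases before the RefSeq start of Atf3 and Dusp1, the members of the list with the smallest p that matched a window, are printed because both genes are known targets of CREB and ATF proteins (RefSeq, GRCm38.p6, minus strand in both). Capitals mark TGACG, the short form of the cAMP response element, on either strand (CGTCA where it lies on the other strand). Overlapping matches were counted, so the palindrome TGACGTCA counts as 2.
Atf3 chr1:191183334-191183583: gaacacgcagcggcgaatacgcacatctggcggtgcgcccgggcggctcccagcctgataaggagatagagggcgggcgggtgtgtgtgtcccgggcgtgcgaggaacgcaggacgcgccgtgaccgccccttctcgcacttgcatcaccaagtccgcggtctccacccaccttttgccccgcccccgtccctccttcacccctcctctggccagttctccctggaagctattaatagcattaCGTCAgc
Dusp1 chr17:26508473-26508722: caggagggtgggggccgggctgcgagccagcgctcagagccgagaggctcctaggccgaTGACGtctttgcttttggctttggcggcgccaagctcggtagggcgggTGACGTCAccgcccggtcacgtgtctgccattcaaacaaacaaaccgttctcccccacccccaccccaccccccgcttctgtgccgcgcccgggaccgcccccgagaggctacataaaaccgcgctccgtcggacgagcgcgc
The Atf3 window held 1 match and the Dusp1 window 3. Of the 25 members 18 matched a window, and 11 of these (61.1%) held TGACG, against 2263 of 8175 measured genes with a window (27.7%) and 4003 of all 22862 windows (17.5%). The whole palindrome was in 2 of the 18 (11.1%), Btg2 and Dusp1, and in 2.84% of the windows of measured genes. Fos, Nr4a1 and Nr4a2, which held 2, 4 and 4 matches, had an unadjusted p over 0.05 in NANCI against WT. A match is a description of letters, not of binding.

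The heat shock genes, chaperones induced by protein damage, were also mostly below 0, 11 of 12, with a median of -0.16. The inducible HSP70 genes led: Hspa1a was at 9.27, 9.19 and 9.54 in NANCI and at 10.05, 10.24 and 10.61 in WT (-0.97 ± 0.25, limma adjusted p = 0.978). Hspa1b was at 9.82, 9.55 and 10.25 in NANCI and at 10.68, 10.72 and 11.17 in WT (-0.99 ± 0.32). These neighbours are nearly identical in sequence, so reads may be split between them. In both, the groups did not overlap and WT replicate 3 was the highest library. Constitutive chaperones were close to 0, with -0.15 ± 0.22 for Hspa8 and -0.03 ± 0.24 for Hsp90ab1. Of the 21 genes measured for the unfolded protein and amino acid response 15 lay below 0, with a median of -0.14 and none with an unadjusted p under 0.05.

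Alveolar identity genes had medians near 0, like all genes. Of 23 AT2 markers, 1 had an unadjusted p under 0.05, against 3.1% of all genes, the median difference was 0.00, against 0.01 over all genes, and in 18 the 95% interval lay within ±1, a share near the 77.7% of all genes. The list mean was 15.33, 15.27 and 15.42 in NANCI and 15.41, 15.48 and 15.19 in WT. Sftpc, the surfactant protein C gene, held the highest or next highest value in every library, so its difference of 0.00 ± 0.31 is a matter of rank. Abca3, the surfactant lipid transporter gene, was at 16.22, 16.09 and 16.04 in NANCI and at 15.99, 16.22 and 15.71 in WT (0.15 ± 0.20). S100g, a calcium-binding protein gene, was the member with that p, at 12.03, 12.02 and 12.45 in NANCI and at 13.14, 13 and 12.17 in WT (-0.61 ± 0.28). Of 24 markers of alveolar type 1 cells, the flat gas-exchange cells, none had an unadjusted p under 0.05, and the median was -0.02. The list mean was 14.15, 14.13 and 13.96 in NANCI and 14.15, 14.32 and 13.91 in WT. Ager, Hopx and Aqp5 were high in WT replicates 1 and 2 and low in replicate 3, with NANCI between for Ager and Aqp5. The median was -0.13 for 24 ciliated markers, 0.08 for 32 cell cycle genes, 0.08 for 19 lung progenitor and branching genes and -0.12 for 8 pan-epithelial genes.

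NANCI differed from Double on these same lists. In NANCI against Double, 1389 genes (10.1%) passed, 747 (5.43%) higher and 642 (4.67%) lower in NANCI. The AT2 list was higher in NANCI than in Double for 17 of its 23 members past the threshold, with a median of 1.22, while 25 of the 32 cell cycle genes were lower, with a median of -1.30. Napsa, the gene of the surfactant-processing protease napsin A, was 2.01 higher in NANCI than in Double (limma adjusted p = 0.00062). Mki67, the proliferation marker, was 1.86 lower in NANCI than in Double (limma adjusted p = 0.00037), and against WT it differed by 0.31 ± 0.22. Double also carries the Nkx2.1-GFP allele and 1 NANCI allele fewer, so the alleles cannot be told apart in that comparison. Sex pattern also differed, male in all NANCI libraries and in 1 of the 3 Double libraries, and the count was 676 with it as a covariate, 709 to 822 with 1 NANCI library left out and 1843 without WT replicate 3.

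**Figure D3:**
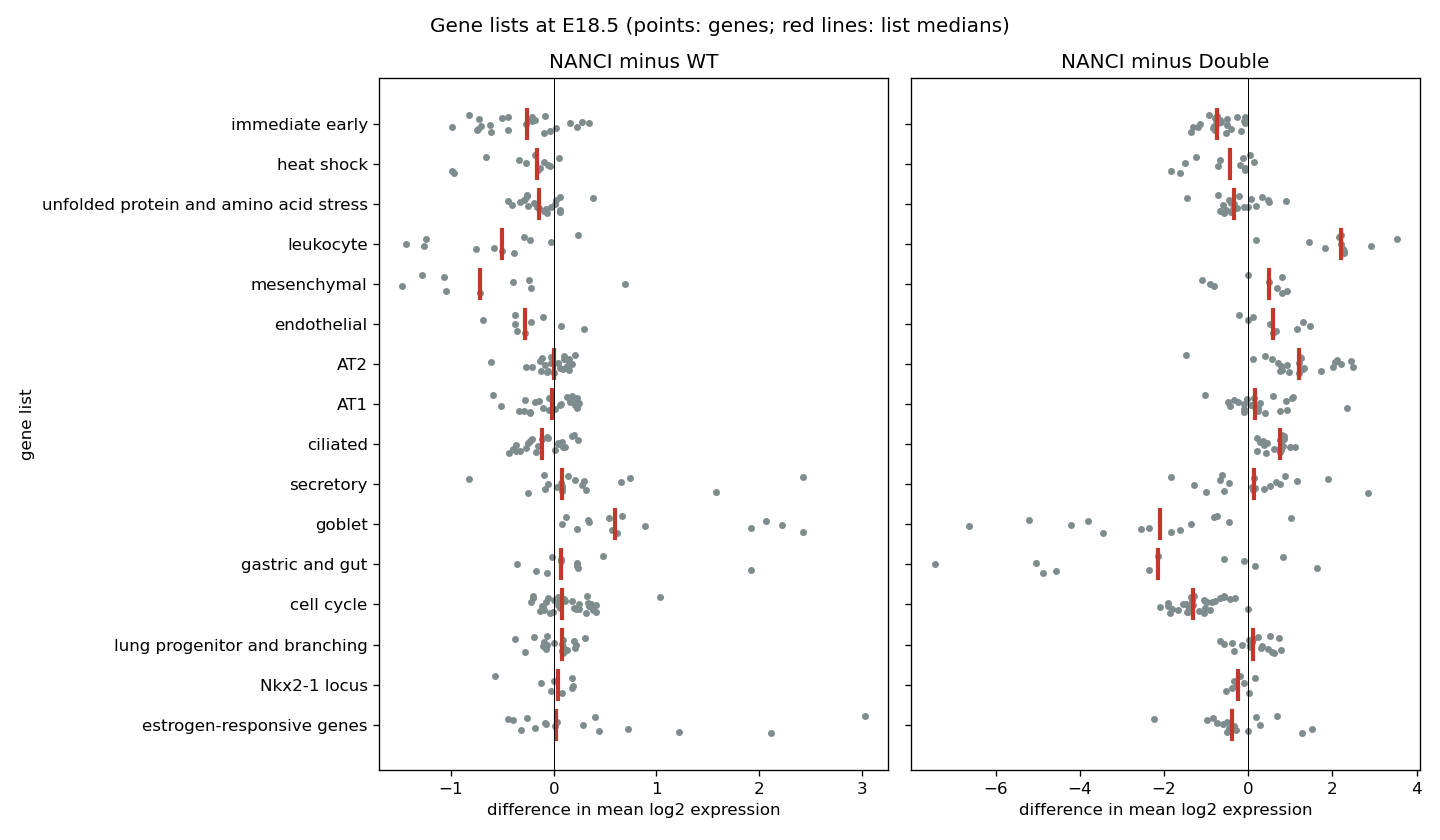
Difference in mean log2 expression for every measured gene of 16 lists at E18.5, NANCI minus WT on the left and NANCI minus Double on the right, with red lines at the list medians. AT2 genes centre on 0.00 against WT and on 1.22 against Double, and cell cycle genes on 0.08 and -1.30.

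Goblet cell genes, which make and export airway mucus, leaned higher in NANCI. All 14 measured lay above 0 in NANCI minus WT (12 to 14 with any 1 library left out), with a median of 0.59, and 3 had an unadjusted p under 0.05, all higher, against 1.4% of all genes. None passed. The list mean was 6.89, 6.56 and 6.67 in NANCI and 5.50, 6.14 and 5.70 in WT, without overlap. Genes of low level enter that mean. Gcnt3, 1 of the 3 with an unadjusted p under 0.05, and Tff2 were at the lowest value of the library in all 3 WT libraries. With a mean level of at least 5 required the median difference fell from 0.59 to 0.35. The interval of the difference lay within ±1 for just 1 of the 14, so the sizes are poorly determined. Muc5b, the gene of a gel-forming airway mucin, was at 11.21, 10 and 9.89 in NANCI and at 5.73, 8.88 and 9.20 in WT (2.43 ± 0.89, limma adjusted p = 0.978). The size of that difference rests on WT replicate 1, since without it the value was 1.33. Ern2, which encodes an endoplasmic reticulum stress sensor of mucous cells, was at 6.22, 6.11 and 5.14 in NANCI and at 3.12, 3.99 and 4.15 in WT (2.07 ± 0.46, limma adjusted p = 0.717), and it was 1.37 higher in Double than in Nkx. At 6 months Ern2 rose in Double against Nkx by 4.24 ± 0.25 (limma adjusted p = 8.02e-06), where 21.7% of all genes passed. The master regulator gene Spdef (0.57 ± 0.44), Agr2 (0.22 ± 0.39) and Fcgbp (0.34 ± 0.50) had overlapping groups. The levels in NANCI stayed below those in Double, where 7 of the 14 were higher at the threshold, against 4.67% of all genes, and the median of NANCI minus Double was -2.09. The gene filter is not given, so some members may be measured because they are high in Double or Nkx.

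Secretory (club) cell markers had a median of 0.08 over 19 genes, and 3 had an unadjusted p under 0.05, all higher, against 1.4% of all genes: Fmo2, Aldh3a1 and Muc5b, which is also in the goblet list. Fmo2, a flavin monooxygenase gene, was at 13.55, 13.07 and 13.48 in NANCI and at 12.62, 12.56 and 12.95 in WT (0.66 ± 0.24), while Scgb1a1, the main club cell product, was at 15.93, 15.40 and 15.95 in NANCI and at 15.87, 16.72 and 15.44 in WT (-0.25 ± 0.33). Of the gastric and gut genes, which Nkx2-1 keeps silent in lung, 12 were measured, with a median of 0.07. The groups did not overlap in 1 of the 12, Tff2, against 6.27% of all genes. Tff2 was at the lowest value of the library in all 3 WT libraries.

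Leukocyte and mesenchymal markers leaned lower in NANCI. Of 11 leukocyte markers measured of 20 listed, 10 lay below 0, with a median of -0.51. The list mean was 6.99, 7.10 and 7.38 in NANCI and 7.95, 7.58 and 7.72 in WT, without overlap. Lyz1, which AT2 cells also express, is a member and lay at 17.03 to 17.15 in all 6 libraries. Ptprc, which encodes the pan-leukocyte protein CD45, averaged 6.18 in NANCI and 6.56 in WT, and 9 listed markers, C1qa, Cd3e and S100a8 among them, are not among the genes measured. Mrc1, the macrophage mannose receptor gene, was at 7.94, 7.12 and 6.91 in NANCI and at 8.86, 8.39 and 9.04 in WT (-1.44 ± 0.52, limma adjusted p = 0.978). Adgre1 (-1.26 ± 0.66) and Ctss (-1.25 ± 0.86) had the next lowest values. The median was -0.71 for 9 mesenchymal and -0.28 for 9 endothelial markers, whose list means overlapped at 6.27 to 7.03 and 7.0 to 7.65 in NANCI and at 7.01 to 7.80 and 7.07 to 8.0 in WT. Without WT replicate 3 these medians were -1.10 and -0.54, but the endothelial one turned to 0.16 with sex pattern as a covariate and to 0.03 without WT replicate 2. The 4 mesothelial markers measured of 6 had a median of 0.15, with 3 above 0. No erythroid marker of the 9 listed is among the genes measured. Lists with no account here (basal, interferon, cholesterol and fatty acid synthesis, p53, Wnt, Notch, BMP and TGF-beta, ion and water transport, mitochondrially encoded genes) had medians of -0.20 to 0.06. The part of these cells in the lower genes was not tested.

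**Figure D4:**
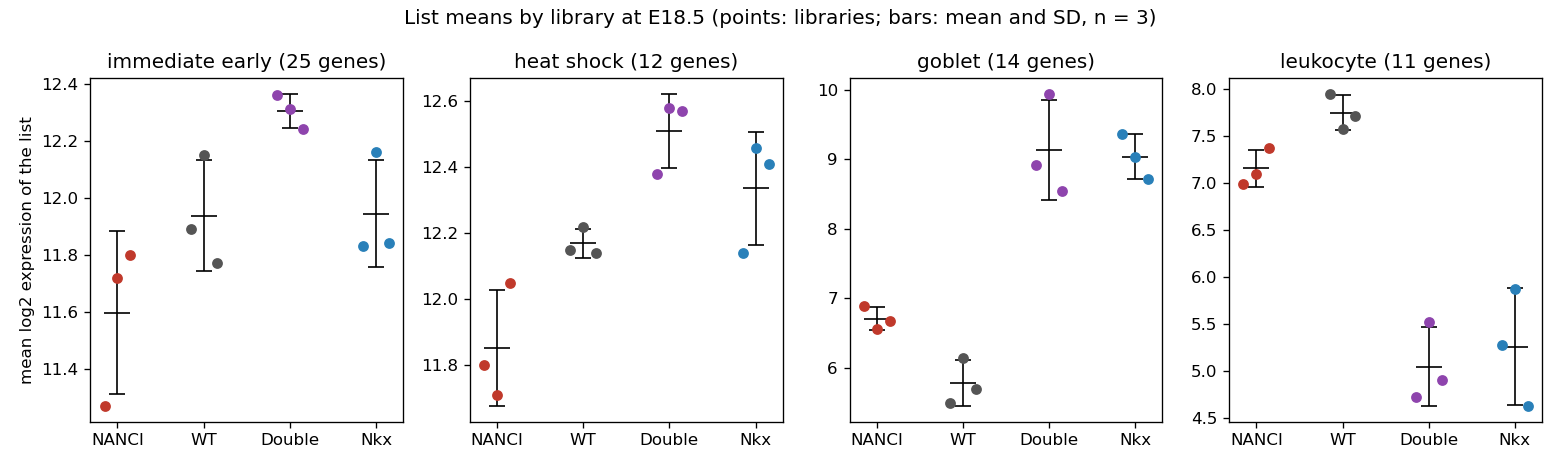
Mean log2 expression of the measured members of 4 lists in each E18.5 library of NANCI, WT, Double and Nkx, with mean and SD as bars. Goblet genes lie higher and leukocyte genes lower in NANCI than in WT without overlap, and the immediate early means overlap through WT replicate 3 at 11.77.

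Set beside Double, the genes higher in NANCI shared their direction in larger shares than the lower ones, a difference that was not tested. Of the 862 separated genes, 689 (79.9%) had the same sign in Double minus WT, against 65.1% of all genes, but both comparisons use the same 3 WT libraries, so a WT library that deviates moves both. Double minus Nkx adds 1 copy of the NANCI allele and shares no library with NANCI minus WT. Replicates 1 and 2 of both Double and Nkx were female in pattern, and replicate 3 was male in both. Nkx replicate 3 had a Y-linked mean of 12.22 but Xist at 11.34, against 7.91 in Double replicate 3. What part that library has in the shares is not given here. In Double minus Nkx, 396 of the 862 (45.9%) had the same sign, against 42.5% of all genes. Among separated genes with a difference of at least 1, the sign was shared by 25 of the 38 higher (65.8%) and 18 of the 60 lower (30%). Among the 83 genes with an unadjusted p under 0.01 it was shared by 22 of 36 higher (61.1%) and 8 of 47 lower (17%).

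Of those 36 higher genes 8 had the same sign and an unadjusted p under 0.05 in Double minus Nkx (22.2%), where 4.07% of all genes reached that p and 2.2% were higher with it. Both comparisons take their spread from 1 fit, which by itself gives genes with a small p in one a smaller p in the other, so that share is no measure of no effect. With each comparison fitted on its own 6 libraries, an alternative chosen after seeing the data, 5 of 25 higher genes did so (20%), against 2.47% of all genes: Esr1, Gm13835, Rab15, Prr16 and Ern2. On the lower side 2 of 38 did (5.26%), against 1.54%. The 8 of the joint fit, chosen after their values were seen, were Esr1, Gm13835, Rab15, Prr16, Ern2, Pkp1, Dnase1l2 and Adgrg6. Prr16, counted in both fits, was at the lowest value of the library in all 3 WT libraries, so its p in NANCI against WT rests on that floor. It was 6.55 higher in Double than in WT, and the gene filter is not given, so it may be measured through other groups. Esr1, Ern2 and Pkp1 were also low in WT. These shares are therefore a description only. Pkp1, which encodes the desmosome protein plakophilin 1, averaged 4.96 in NANCI and 3.52 in WT and was 1.18 higher in Double than in Nkx. Adgrg6, an adhesion G-protein-coupled receptor gene, averaged 11.71 in NANCI and 11.15 in WT and was 0.40 higher in Double than in Nkx. Of the 47 lower genes of the joint fit 3 did so (6.38%), against 1.86% of all genes. Atf3, Ccn1 and Csrnp1, immediate early genes that were lower in NANCI than in WT, were higher in Double than in Nkx by 0.59, 0.74 and 0.62, each with an unadjusted limma p under 0.05.

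A single gene passed in Double against Nkx itself, 1 of 13750 (0.00727%), and the test of the difference between both comparisons passed for 0 genes (0%) by limma, with 556 (4.04%) at an unadjusted p under 0.05. The 2 comparisons differ in copy number of the NANCI allele as well as in background. Double against WT, which shares the WT libraries, put Ern2 5.88 higher, where NANCI minus WT was 2.07. Gcnt3, at 3.84, 3.68 and 3.09 in NANCI, was at 7.77, 8.39 and 7.06 in Double, and both groups carry the allele, but Nkx without it was at 7.82, 8.0 and 7.91. Esr1, Gm13835 and Rab15 were of like size in both, at 3.02, 1.33 and 0.86 in NANCI minus WT and at 2.33, 1.23 and 1.03 in Double minus WT, and NANCI minus Double was 0.69 ± 0.41, 0.09 ± 0.20 and -0.17 ± 0.14 for these genes.

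**Figure D5:**
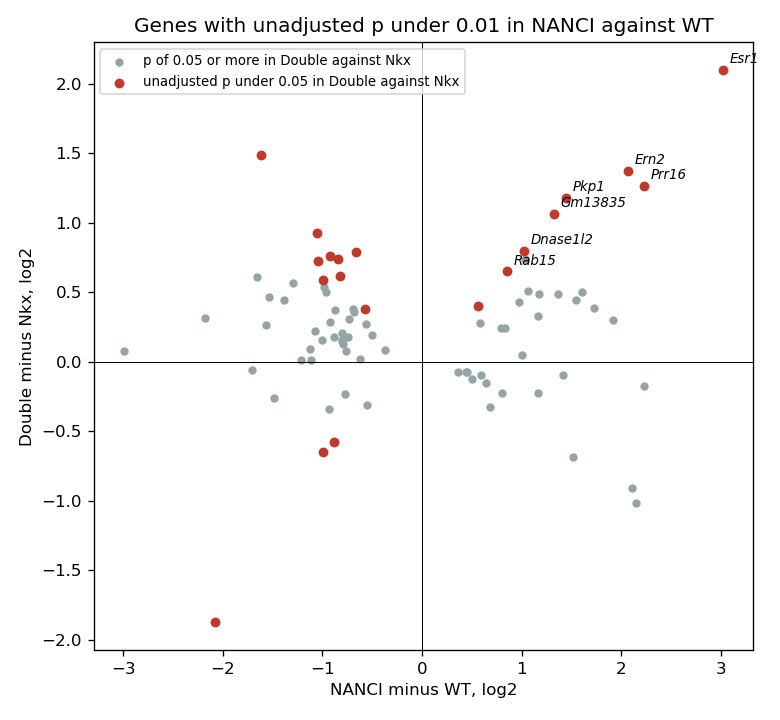
The 83 genes with an unadjusted p under 0.01 in NANCI against WT, by their difference in mean log2 expression in NANCI minus WT (x axis) and in Double minus Nkx (y axis). Red points have an unadjusted p under 0.05 in Double against Nkx. Esr1 lies at 3.02 and 2.10, 22 of the 36 genes on the right lie above 0, and 8 of the 47 on the left lie below it.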

How the data were processed

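The deposited files hold 1 log2 expression value per Ensembl gene and library. The names STAR, limma and mm9 come from the submitters' processing notes. What each was used for, its version and the gene filter remain not given in the sources used here. Equal values by rank across libraries point to quantile normalization by the authors before deposit, so read totals are unknown. Precision is limited by 3 libraries per group, and low genes are tied, with 209 to 270 distinct values below or at the median of a NANCI or WT library. The lowest value of a library was read as 0 reads. Symbols and coordinates are from GENCODE on GRCm38 for 99.2% of IDs.

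limma 3.58.1 in R 4.3.3 was fitted to all 12 E18.5 libraries (4 groups, mean-variance trend, 8 residual degrees of freedom), with two-sided p-values adjusted by Benjamini-Hochberg over 13750 genes; the step was tested on simulated data. Values after ± are limma standard errors. Gene lists are described by counts and medians.

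Members and lists were chosen with earlier results of these data known. Named genes are the locus, the 10 smallest p in each direction among autosomal genes that are no gene model, pseudogene or small RNA, the 6 largest separated differences in each direction among these (mean of at least 8, no library at its lowest value), the 2 most abundant and the smallest-p member of each list, and any gene that passes with 1 library left out. The genes with a gap of at least 1, Gm13835 and further list members were added after their values were seen. Same-numbered NANCI and WT libraries did not deviate together. Alternatives are given at the end.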

Additional observations from a re-analysis of the deposited data

How the results depend on the processing

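The count of genes passing in NANCI against WT was 0 in the fit given, and also 0 in the fit of the 6 libraries alone, with robust moderation, median centring, a mean of at least 5, sex pattern as a covariate or a replicate block. It was 3 without the trend, 1720 with array weights, 11 in male-pattern libraries alone (1 WT library, assumed to vary like the other groups) and 0 to 2 with 1 library left out. The array weights gave WT replicate 1 a weight of 3.93 and replicate 3 one of 0.23, and their estimation did not converge. The count in NANCI against Double (1389) was 4467 with array weights, 676 with the sex covariate and 709 to 1843 with 1 library left out, and it was 1566 with the replicate block. The test of the difference between backgrounds (0 genes) gave 487 with array weights, 42 in male-pattern libraries and 0 to 2 with 1 library left out. The count of separated genes (862) was 1317 to 6011 with 1 library left out, where smaller groups separate more genes by construction. The cause of the other shifts was not tested.

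Signs turned for 5 genes near 0. With 1 library left out, Nkx2-1 was -0.05 to 0.17, Mbip -0.14 to 0.11, Brms1l -0.06 to 0.10, Ralgapa1 -0.03 to 0.40 and C87198 -0.29 to 0.18. Mbip was 0.01 with array weights and 0.03 in male-pattern libraries, Brms1l was -0.03 with the sex covariate, and C87198 was 0.20 with array weights and 0.27 in male-pattern libraries. Same-numbered NANCI and WT libraries had correlated deviations of -0.03, -0.28 and -0.28, so the numbers do not pair them, and the replicate block changed no call in NANCI against WT. List medians kept their sign under every alternative for the immediate early (-0.44 to -0.15), heat shock (-0.23 to -0.11), goblet (0.35 to 0.94), leukocyte (-0.97 to -0.29), mesenchymal (-1.10 to -0.30) and nuclear-retained (0.30 to 0.84) lists. So did the unfolded protein (-0.19 to -0.05), hypoxia and glycolysis (-0.25 to -0.07), BMP and TGF-beta (-0.12 to -0.02) and basal (-0.42 to -0.01) medians. The imprinted (0.08 to 0.23), cell cycle (0.02 to 0.17) and secretory (0.02 to 0.38) medians also kept theirs. The endothelial median did not (-0.54 to 0.16). Read depth is unknown, and with 3 libraries per group the median standard error was 0.222.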

Other observations

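Genes with a small p in NANCI against WT were spread unevenly over the chromosomes. An unadjusted p under 0.01 was found for 0.604% of all genes (83 of 13750), but for 13 of 728 genes on chromosome 8 (1.79%) and 8 of 491 on chromosome 12 (1.63%). It was found for 7 of 507 on the X chromosome (1.38%), where the unequal sex patterns of the groups cannot be told apart from genotype, and for 1.21% on each of chromosomes 17 and 18. The chromosome 8 genes included Tox3, Tbc1d9 and Nfix, which were higher in NANCI, and Dnase2a, Mt1, Mt2, Lpcat2 and Jund, which were lower. In Double against Nkx the same p was reached by 1.51% of genes on chromosome 8, 0.815% on chromosome 12 and 0.592% on the X chromosome, against 1.12% of all genes. These shares were noticed in the data and were not tested.

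The WT libraries were uneven in hypoxia and glycolysis genes. The list mean was 11.49 in WT replicate 3, against 11.85 and 11.94 in WT replicates 1 and 2 and 11.58 to 11.65 in NANCI. Of the 17 genes, 13 lay below 0 in NANCI minus WT, with a median of -0.17. That median was -0.22 without WT replicate 3 and -0.07 without WT replicate 2. Aldoa, an aldolase gene of glycolysis, was at 12.69, 12.35 and 12.73 in NANCI and at 13.26, 13.59 and 11.86 in WT, so WT replicate 3 lay below NANCI and the other WT libraries above it. Pfkl, a phosphofructokinase gene, was at 10.66, 10.34 and 10.64 in NANCI and at 11.02, 11.32 and 10.08 in WT. Imprinted genes (17 measured, median 0.16) had no member with an unadjusted p under 0.05. H19, the imprinted growth-regulating RNA, was at 12.78, 12.20 and 12.91 in NANCI and at 12.67, 12.12 and 11.81 in WT, and it was 4.94 lower in NANCI than in Double (limma adjusted p = 0.000136).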
